A study of Nannochloropsis oceanica with 10 samples.

Results

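The 4 genes *g5629*, *g6113*, *g6882* and *g9713* are the LHCR genes that the study names as members of the red-lineage antenna of photosystem I (PSI) in the alga *Nannochloropsis oceanica* IMET1. They were taken by gene number from the count tables, 4 of 10363 genes. All 4 were counted in every library, with at least 1167 reads in each, and all 4 passed the filter on low counts in every comparison. Their transcripts were followed in the wild type (WT) and in the *hlr1* mutant, in which an insertion cassette sits within the exon region of *g4928* (*HLR1*), a further LHCR gene. Cells were grown at 50 µmol photons per square metre per second at 25 °C, kept overnight in the dark, and moved to high light (HL, 200 in the same unit). Both strains were sampled after an overnight dark incubation and at 1, 6, 96 and 144 h of HL, with 3 replicate libraries (a, b and c) per strain and time, 30 in all. *hlr1* is a single insertion line, so its difference from WT in this data set cannot be told apart from any other difference between the cultures of that line and of WT.

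Light-harvesting complex (LHC) proteins are chlorophyll-binding membrane proteins that span the thylakoid membrane. They sit around the photosystems, absorb light and pass the energy to the reaction centres. In algae with a plastid of red algal origin, the LHCR proteins are the type bound to PSI, whereas LHCF proteins mainly serve as antenna of photosystem II (PSII) and LHCX proteins take part in photoprotection. The genes of LHC proteins are in the nucleus, so their transcripts are made in the nucleus and the proteins are imported into the plastid. Light is a known regulator of LHC transcripts in many algae and plants.

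The authors' tables describe all 4 genes as light-harvesting proteins, from matches to *N. gaditana*, and each has the chlorophyll a/b-binding domain. The label of a PSI antenna rests on the study, because the best protein matches in the tables were to plant antenna proteins of both photosystems. *g5629* (scaffold 182, 742866 to 744650, plus strand) matched CP24, a minor PSII antenna of plants. *g6113* (scaffold 214, 168652 to 170441, minus strand) matched a PSI chlorophyll a/b-binding protein. Both *g6882* (scaffold 247, 915413 to 916792, plus strand) and *g9713* (scaffold 341, 33126 to 34430, plus strand) matched the chlorophyll a-b binding protein named 1B-21. Positions are those of the gene models in the tables, of a genome build not given in the sources used here, and exons were not annotated in them.

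The study lists primers for *g5629* and *g9713*. They are shown because they are the sequences that the study lists for these genes. All are written 5′ to 3′, with no part in capitals, and their place within the gene models was not determined here.
*g5629* forward: ctgccaacaactacctgaagga
*g5629* reverse: acgcagccagttcacatcg
*g9713* forward: cggcgatctacgagatgagc
*g9713* reverse: gggaagccactgttggtcag

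Library totals ranged from 4424898 to 7019039 counts, and 7184 to 10216 genes had a count. Libraries of the dark and of 1 h stood apart in composition: their TMM factors, which correct a library's total for the share taken by its most abundant transcripts, were 0.697 to 0.944, against 1.05 to 1.22 from 6 h on. Levels that compare these times therefore depend on the scaling. Further apart stood replicate c of WT in the dark, with 7861 genes with a count, replicate a of *hlr1* in the dark (7184) and replicate b of *hlr1* after 1 h (7465). WT dark replicate b had a number near that of replicate c, 8012. The chi-square per gene measures how far the counts of a pair of libraries differ. In the WT dark group it was 193 and 210 for the pairs with replicate c, and 51.5 for a with b. For the dark and for 1 h in *hlr1*, values without the libraries that stand apart are given beside the results. In the check of the disrupted gene after 6 h of HL, *HLR1* was at 1429 to 1554 CPM (the count relative to the scaled total of its library) in WT and at 479.1 to 497.5 CPM in *hlr1*. After 1 h it was at 909.4 to 960.6 CPM in WT and at 716.9 to 910.5 CPM in *hlr1*, so that the strains overlapped. The *HLR1* gene model is 6412 bases long and also matches an Arf-GAP protein with its domain, and whether reads of another gene add to its count was not tested.

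The levels below are CPM with TMM factors over all 30 libraries. They are shares of each library, so that less of a transcript per cell and fewer cells that make it cannot be told apart. The sources used here do not give how reads shared by near-identical LHC genes were counted. Values are given in the order of replicates a, b and c, and means with SD of n = 3. *g5629* was counted in WT at 2351, 2197 and 2810 CPM in the dark, 2053, 2017 and 1868 after 1 h, 2992, 3357 and 3433 after 6 h, 2424, 2467 and 2176 after 96 h, and 3384, 3640 and 3554 after 144 h. In *hlr1* it was at 2389, 2937 and 3200 CPM in the dark, 2094, 1776 and 2378 after 1 h, 2921, 3007 and 2584 after 6 h, 2490, 2871 and 2390 after 96 h, and 3622, 3728 and 3185 after 144 h. It was lowest after 1 h and highest after 144 h in both strains, 1979 ± 97.9 against 3526 ± 130.1 CPM in WT, a 1.78-fold range. Neighbours in the order of its 10 group means lay within their spread in 9 of 9 steps, where the spread is the root of the summed squares of both SDs.

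The group means of *g6113* spanned a 2.15-fold range, beside 2.14-fold for *g6882*, and 1.78-fold for both *g5629* and *g9713*. In WT it was at 2426, 1462 and 3576 CPM in the dark, 1412, 1690 and 1528 after 1 h, 3052, 3225 and 3057 after 6 h, 1535, 1430 and 1375 after 96 h, and 2268, 2207 and 2155 after 144 h. In *hlr1* it was at 2698, 2178 and 3164 CPM in the dark, 1453, 1675 and 1868 after 1 h, 2783, 2784 and 2620 after 6 h, 1592, 1760 and 1562 after 96 h, and 2199, 2587 and 1816 after 144 h. The 3 WT libraries of the dark spanned almost the whole range of the gene, with replicate c the highest of all 30 libraries. From 1 h on, the WT groups of 1 h, 6 h and 144 h did not overlap with each other, while that of 96 h (1375 to 1535 CPM) overlapped that of 1 h (1412 to 1690). Such separation was not counted over all genes.

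*g9713* followed a similar course. In WT it was at 1565, 1463 and 3178 CPM in the dark, 1777, 1478 and 1582 after 1 h, 2755, 2597 and 2469 after 6 h, 1561, 1362 and 1464 after 96 h, and 2051, 1894 and 1754 after 144 h. In *hlr1* it was at 1539, 2154 and 2718 CPM in the dark, 1788, 1841 and 2022 after 1 h, 2450, 2338 and 2562 after 6 h, 1454, 1630 and 1427 after 96 h, and 1641, 1930 and 1446 after 144 h. The highest group means were again those of 6 h (2607 ± 143 CPM in WT and 2450 ± 112 in *hlr1*) and the lowest those of 96 h (1462 ± 99.3 and 1504 ± 110). WT dark replicate c, at 3178 CPM, was above every other library.

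*g6882* was the least abundant. In WT it was at 509.7, 575.7 and 939.7 CPM in the dark, 835.3, 648.1 and 670.7 after 1 h, 606.2, 799.4 and 506.4 after 6 h, 461.8, 455.4 and 419.8 after 96 h, and 739.9, 713.7 and 684.5 after 144 h. In *hlr1* it was at 285, 651.6 and 861.9 CPM in the dark, 861, 440.1 and 636.1 after 1 h, 459.6, 622.5 and 719.6 after 6 h, 557, 567.6 and 492.8 after 96 h, and 720.8, 1179 and 955.1 after 144 h. Its replicates were widely spread in the dark and after 1 h, and the groups of the dark, 1 h and 6 h overlapped in each strain. Per kilobase of gene model, which here includes introns and so is a rough guide to length, the levels in WT after 6 h were 1998 ± 109.6 CPM for *g9713*, 1827 ± 131.9 for *g5629*, 1738 ± 54.9 for *g6113* and 461.8 ± 107.9 for *g6882*. The first 3 genes thus lay close together on the level per length, and *g6882* was below them.

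**Figure D1:**
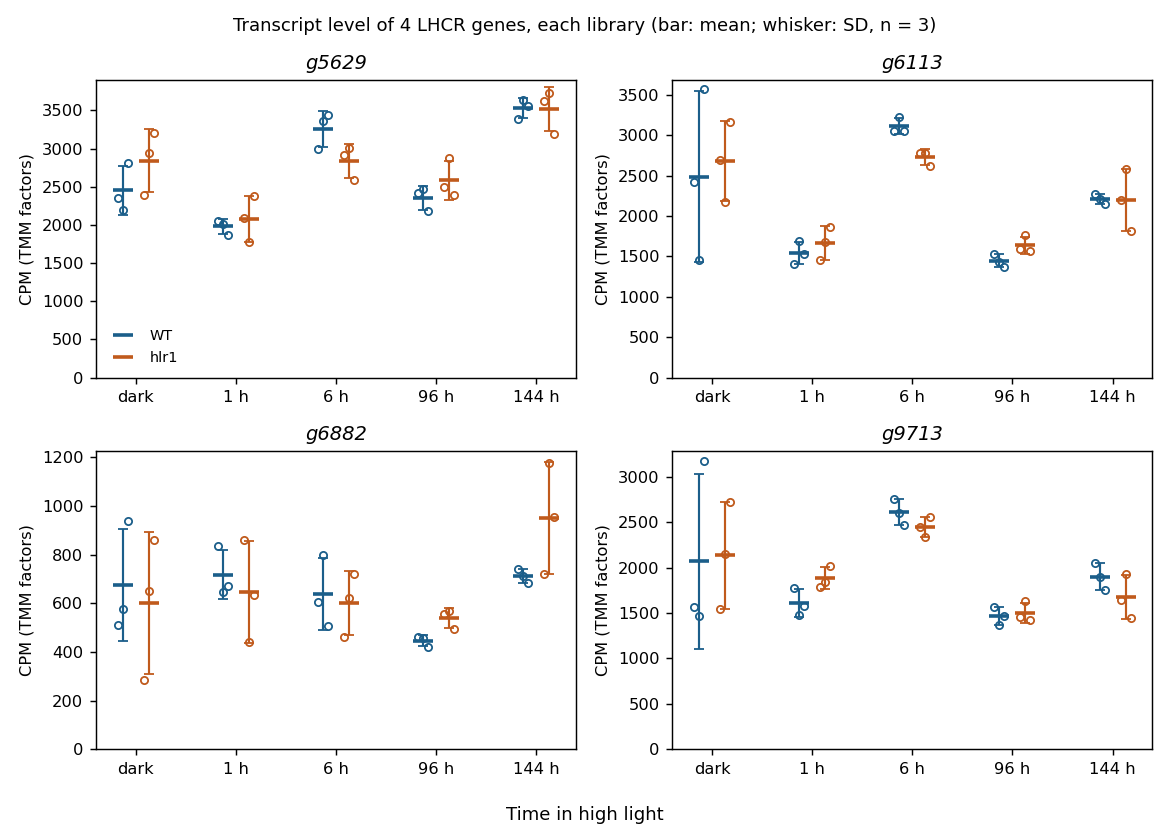
Transcript level of the 4 genes in each library, in CPM with TMM factors (y axis, from 0), against the time in HL (x axis), for WT (blue) and *hlr1* (orange). Points are libraries, bars means and whiskers SD of n = 3; *g6113* and *g9713* peak after 6 h and are lowest after 96 h in WT, *g5629* is highest after 144 h, and the dark libraries are the most scattered.

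Changes between times were tested with edgeR's quasi-likelihood test on the counts, 3 against 3 libraries, with Benjamini-Hochberg adjustment over all genes tested. A gene is said here to have risen or fallen where its adjusted p was under 0.05, and to be called where its fold change was also over 2, the threshold of the study. The study named these genes from the shift from dark to HL in these same samples, so a rise after dark is not independent evidence. That choice may also bear on the WT steps to and from 6 h of HL, which use the same 6 h libraries. Those steps are therefore not fully independent evidence either.

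From 1 to 6 h of HL, 3 of the 4 genes rose in each strain: *g5629*, *g6113* and *g9713*. This comparison was added after the levels were seen. In WT the log2 fold changes were 0.80 ± 0.090 (SE) for *g5629*, 1.09 ± 0.096 for *g6113* and 0.78 ± 0.10 for *g9713*, with edgeR adjusted p of 0.000204, 5.91e-05 and 0.000448. Each of these 3 had its lowest 6 h library above its highest 1 h library in WT, which was not counted over all genes. In *hlr1* they were 0.60 ± 0.099, 0.86 ± 0.10 and 0.53 ± 0.081, with edgeR adjusted p of 0.00574, 0.00140 and 0.00434. *g6882* had −0.090 ± 0.18 in WT and 0.047 ± 0.27 in *hlr1* (edgeR adjusted p = 0.695 and 0.912). Only *g6113* in WT was also called.

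Changes between 1 and 6 h were common among all genes. In WT, 69.1% of all genes tested had a lower log2 fold change than *g5629*, 74.8% than *g6113* and 68.5% than *g9713*. The percentages in *hlr1* were 57.5, 64.1 and 55.5, in the same order. Of all genes tested, 38.9% were called in WT and 22.5% in *hlr1*, and 27.3% and 12.2% rose with an adjusted p under 0.05. Leaving out single libraries moved the number called from 3691 to between 3118 and 3990 in WT, and from 2126 to between 1240 (without 6 h replicate a) and 3185 (without 1 h replicate c) in *hlr1*. The median log2 fold change of all genes was 0.070 in WT and 0.33 in *hlr1*, and with library totals in place of TMM factors 0.48 and 0.66. Under library totals the 3 genes had larger changes, 1.21 (*g5629*), 1.505 (*g6113*) and 1.19 (*g9713*) in WT, and the calls over all genes split into 2854 higher and 1066 lower in WT, against 2007 and 1684 under TMM. In *hlr1* they split into 1401 higher and 798 lower, against 982 and 1144. Without *hlr1* 1 h replicate b, the 3 genes had 0.42 ± 0.098 (*g5629*), 0.80 ± 0.11 (*g6113*) and 0.44 ± 0.082 (*g9713*) in *hlr1*, with edgeR adjusted p of 0.0213, 0.00428 and 0.0102. The rise of *g5629* in *hlr1* had an edgeR adjusted p of 0.0700 without *hlr1* 1 h replicate a, and that of *g9713* in *hlr1* an edgeR adjusted p of 0.165 when all groups were in 1 fit.

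Between 6 and 96 h of HL, the transcripts went down again. In WT all 4 genes fell, *g6113* by 1.14 ± 0.071 on the log2 scale, *g9713* by 0.87 ± 0.075, *g6882* by 0.55 ± 0.12 and *g5629* by 0.50 ± 0.076. The edgeR adjusted p were 5.29e-09, 1.94e-07, 0.00216 and 6.79e-05. In *hlr1*, *g6113* (−0.75 ± 0.064) and *g9713* (−0.72 ± 0.066) fell as well, with edgeR adjusted p of 1.55e-10 and 5.62e-10. *g5629* had −0.15 ± 0.072 and *g6882* −0.17 ± 0.099 in *hlr1* (edgeR adjusted p = 0.0866 and 0.158). No 96 h library of *g6113* or *g9713* reached the level of a 6 h library in either strain. The share of all genes without such overlap was not counted.

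Over all genes, 13.2% were called in WT and 13.8% in *hlr1* for this step, and 20.8% and 25.4% fell with an adjusted p under 0.05. *g6113* was the only one of the 4 to be called, in WT, where 3.04% of all genes tested had a lower log2 fold change than it. With all groups in 1 fit, *g6882* in WT had an edgeR adjusted p of 0.510. In *hlr1*, *g5629* passed without 6 h replicate c (−0.21, edgeR adjusted p = 0.00272) or without 96 h replicate b (−0.23, 0.00451), and *g6882* without 6 h replicate a (−0.33, 0.00275).

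From 96 to 144 h the transcripts rose once more. In WT all 4 genes rose, *g6882* by 0.66 ± 0.074, *g6113* by 0.59 ± 0.071, *g5629* by 0.56 ± 0.073 and *g9713* by 0.36 ± 0.081 on the log2 scale. The edgeR adjusted p were 0.000139, 0.000234, 0.00037 and 0.0121. Every WT library of 144 h was above every WT library of 96 h for each of the 4. How many of all genes separate in this way was not counted. In *hlr1*, *g6882* (0.81 ± 0.16) and *g5629* (0.43 ± 0.10) rose, with edgeR adjusted p of 0.0128 and 0.0224, while *g6113* had 0.41 ± 0.13 and *g9713* 0.14 ± 0.12 (0.0532 and 0.419).

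Changes of this step were rarer among all genes than those before it, and none of the 4 reached the 2-fold threshold. Of all genes tested, 0.621% were called in WT and 3.17% in *hlr1*, and 3.89% and 9.72% rose with an adjusted p under 0.05. Leaving out single libraries moved the number called from 61 to between 40 (without 144 h replicate b) and 117 (without 96 h replicate b) in WT, and from 311 to between 17 (without 96 h replicate c) and 518 (without 144 h replicate b) in *hlr1*. With all groups in 1 fit, which shares 1 estimate of the spread with the more scattered early groups, no rise passed: the edgeR adjusted p were 0.110 (*g5629*), 0.854 (*g6113*), 1 (*g6882*) and 1 (*g9713*) in WT, and 0.181 and 0.443 for *g5629* and *g6882* in *hlr1*. *g9713* in WT did not pass without 96 h replicate c or 144 h replicate b (edgeR adjusted p = 0.0557 and 0.0684). In *hlr1*, *g5629* did not pass when any 1 library of 96 h (a, b, c) or 144 h replicate a was left out (edgeR adjusted p = 0.111, 0.0543, 0.124 and 0.0933), nor *g6882* when any 1 of the 96 h libraries a, b and c was left out (0.0643, 0.0598 and 0.0833). *g6113* in *hlr1* passed without 144 h replicate b or c (0.0407 and 0.00159) and with the replicate letter as a block (0.0218).

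**Figure D2:**
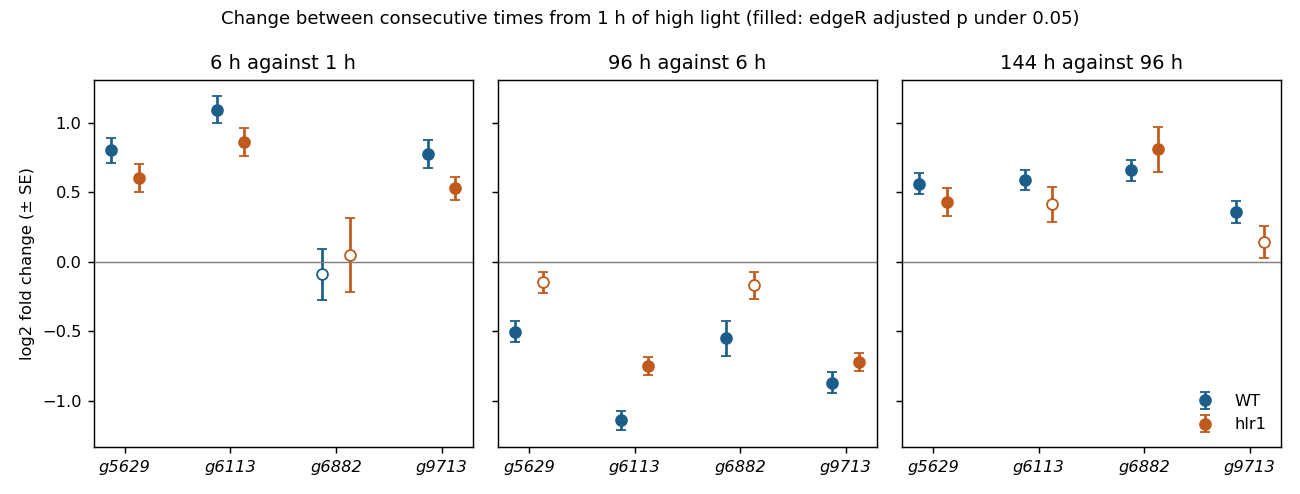
Log2 fold change with SE (y axis) of each gene (x axis) from 1 to 6 h, 6 to 96 h and 96 to 144 h of HL, in WT (blue) and *hlr1* (orange), with filled points where the edgeR adjusted p was under 0.05. *g5629*, *g6113* and *g9713* rose, then fell and rose again in WT, while *g6882* moved little from 1 to 6 h (−0.090 in WT and 0.047 in *hlr1*).

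Against the dark, none of the 4 genes was called in either strain after 1, 6 or 144 h. The percentage of all genes called was 3.11, 25.6 and 20 in WT and 2.46, 25.7 and 17.6 in *hlr1*. Leaving out single libraries gave 28 to 689, 1268 to 3606 and 924 to 3118 called genes in WT, each highest without dark replicate c, and 89 to 219, 1330 to 4825 and 673 to 4345 in *hlr1*, each highest without dark replicate a. After 144 h, *g5629* was the highest above the dark of the 4 in WT, with 0.37 ± 0.20, and *g6113* the lowest, with −0.33 ± 0.34 (edgeR adjusted p = 0.237 and 0.537). In *hlr1* after 144 h the values ran from −0.12 ± 0.19 for *g9713* to 0.92 ± 0.35 for *g6882* (0.675 and 0.108). After 1 h in *hlr1* they ran from −0.62 ± 0.20 for *g6113* to 0.21 ± 0.35 for *g6882* (edgeR adjusted p = 0.175 and 0.942).

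A single member passed the adjusted threshold against the dark: *g9713* in *hlr1* after 6 h, with 0.51 ± 0.15 on the log2 scale (edgeR adjusted p = 0.0450), where 14.2% of all genes rose and the median of all genes was 0.45. Without *hlr1* dark replicate a it had 0.11 (edgeR adjusted p = 0.444), and with the replicate letter as a block 0.53 (0.0936). In WT after 6 h, leaving out dark replicate c moved *g5629* to 0.64, *g6113* to 0.80 and *g9713* to 0.90, with edgeR adjusted p of 0.00488, 0.0340 and 0.00150. Without the same library, *g5629* and *g6882* after 144 h in WT had 0.64 and 0.40 (edgeR adjusted p = 0.00468 and 0.0268). Without *hlr1* dark replicate a, *g9713* after 144 h in *hlr1* had −0.54 (edgeR adjusted p = 0.0343). With library totals *g5629* in WT was called after 6 and 144 h (log2 1.10 and 1.14), where the medians of all genes were 0.82 and 0.87, against 0.11 and 0.12 under TMM. The comparisons of these genes with the dark thus turned on single libraries of the dark and on the scaling.

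Between the strains, none of the 4 genes was called at any time, and none had an adjusted p under 0.05. The percentage of all genes called was 0 in the dark, 0 after 1 h, 0.286 after 6 h, 0.418 after 96 h and 0.407 after 144 h. In the dark, 226 genes had an unadjusted p under 0.05, and DESeq2 called 16 genes, and after 1 h the numbers were 260 and 4, with none of the 4 LHCR genes among the called. After 6, 96 and 144 h DESeq2 called 30, 44 and 105. Leaving out single libraries gave 21 to 35 called genes after 6 h and 28 to 51 after 96 h. After 144 h it gave 9 (without WT replicate c) to 311 (without *hlr1* replicate b), against 40 with all libraries. After 6 h all 4 were lower in *hlr1*, by −0.21 ± 0.069 (*g5629*), −0.20 ± 0.059 (*g6113*), −0.094 ± 0.15 (*g6882*) and −0.098 ± 0.065 (*g9713*) on the log2 scale. The edgeR adjusted p were 0.207, 0.142, 0.846 and 0.592. The 3 WT libraries of *g6113* were above the 3 of *hlr1*, without overlap, but the share of all genes that separate like this was not counted.

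After 96 h the differences were above 0. They were 0.13 ± 0.077 for *g5629*, 0.18 ± 0.070 for *g6113*, 0.28 ± 0.072 for *g6882* and 0.041 ± 0.074 for *g9713*, with edgeR adjusted p of 0.429, 0.204, 0.05 and 0.842. The 3 *hlr1* libraries of *g6882* were above the 3 of WT, a separation that was not counted over all genes. The adjusted p of *g6882* was at the threshold and not under it. It passed in DESeq2 (adjusted p = 0.0111), in limma voom with library weights (0.0196), and in edgeR without WT 96 h replicate b (0.0104), with no filter on low counts (0.0466) and with a mean count of 100 in the higher group (0.0486). It did not pass in edgeR with library totals (0.0685), with the replicate letter as a block (0.0973), with all groups in 1 fit (1) or without any other single library (0.0626 to 0.247). The shared signs at these 2 times turned on single libraries: *g6882* after 6 h had 0.10 without WT replicate b and 0.064 without *hlr1* replicate a, and *g9713* after 96 h had −0.011 without WT replicate b and −0.022 without *hlr1* replicate b. After 144 h *g5629* and *g6113* had −0.0099 ± 0.097 and −0.0095 ± 0.13, *g9713* −0.19 ± 0.12 and *g6882* 0.41 ± 0.16 (edgeR adjusted p = 0.962, 0.972, 0.366 and 0.163).

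In the dark and after 1 h the standard errors were larger. The 4 differences ran from −0.24 ± 0.38 (*g6882*) to 0.20 ± 0.25 (*g5629*) in the dark and from −0.099 ± 0.24 (*g6882*) to 0.28 ± 0.14 (*g9713*) after 1 h. Without the 3 libraries that stand apart, all 4 were higher in *hlr1* in the dark, by 0.41 ± 0.17 (*g5629*), 0.45 ± 0.25 (*g6113*), 0.44 ± 0.24 (*g6882*) and 0.66 ± 0.19 (*g9713*), with edgeR adjusted p of 0.980, 0.999, 0.999 and 0.842. After 1 h they then ran from 0.079 ± 0.22 (*g6882*) to 0.24 ± 0.15 (*g9713*). The strain difference after 6 h passed for *g5629* and *g6113* in limma voom with library weights (adjusted p = 0.0366 and 0.0178), and for *g5629* also in edgeR without WT 6 h replicate a (0.0423). At every time the differences of the 4 genes were under 2-fold. *HLR1* was called at 6 and 144 h, with −1.62 ± 0.068 and −1.09 ± 0.088 (edgeR adjusted p = 1.44e-10 and 0.000773). In the dark, at 1 h and at 96 h *HLR1* was not called. Its log2 differences there were −1.01 ± 0.29, −0.16 ± 0.18 and −0.30 ± 0.063, in that order. The adjusted p from edgeR were 0.9997, 0.998 and 0.0181.

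**Figure D3:**
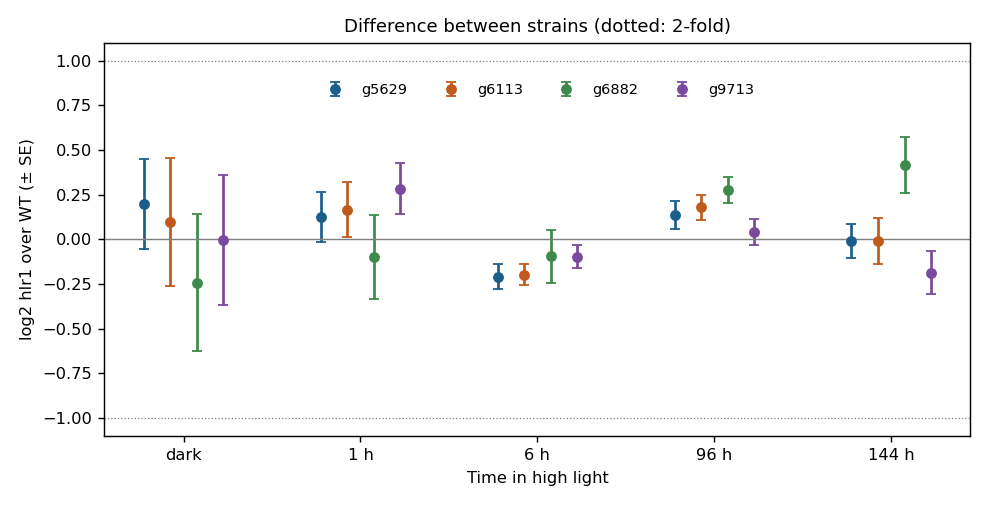
Log2 difference of *hlr1* from WT with SE (y axis) for the 4 genes at each time (x axis), with dotted lines at 2-fold. All points lie between −0.24 and 0.41, below 0 for all 4 genes after 6 h and above 0 for all 4 after 96 h (with single libraries left out, *g6882* reaches 0.10 after 6 h and *g9713* −0.022 after 96 h), and the SE is widest in the dark.

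Whether the light response itself differed between strains was tested as the interaction of strain and time. None of the 4 genes was called or passed the adjusted threshold in any of 5 such tests, where the percentage of all genes called was 0 (1 h against dark), 0 (6 h against dark), 0.162 (96 h against 6 h), 0 (144 h against 96 h) and 0.0207 (6 h against 1 h, added after the levels were seen). In these tests 133, 366, 968, 1081 and 454 genes had an unadjusted p under 0.05, and DESeq2 called 1, 19, 25, 5 and 16. The counts of calls turned on single libraries: up to 1 and 32 genes were called for 1 and 6 h against the dark (both without WT dark replicate a), 9 (without *hlr1* 6 h replicate a or 96 h replicate b) to 22 (without WT 96 h replicate b) for 96 h against 6 h, up to 211 for 144 h against 96 h (without *hlr1* 144 h replicate b) and up to 609 for 6 h against 1 h (without *hlr1* 1 h replicate c). None of the 4 genes was among those called. The lowest edgeR adjusted p of a member was 0.0953, for *g6113* from 6 to 96 h, where its fall was smaller in *hlr1* by 0.37 ± 0.092. This interaction passed in DESeq2 (adjusted p = 0.00571) and in limma voom with library weights (0.0188). The steps at which a gene passed in WT and not in *hlr1* were therefore not shown to differ between the strains.

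The share of each gene in the summed count of the 4 does not depend on the scaling between libraries. The 4 genes together took 0.563 ± 0.183% of the counts of WT in the dark, 0.491 ± 0.0294% after 1 h, 1.14 ± 0.0343% after 6 h, 0.691 ± 0.029% after 96 h and 0.939 ± 0.00526% after 144 h. These percentages are relative to library totals, and so they do depend on the scaling. With TMM factors the sum in WT was at 5853 ± 214.7 CPM after 1 h and 9617 ± 315.3 after 6 h. Within this sum, *g5629* took 33.9 ± 2.23% after 6 h in WT and 41.2 ± 1.69% after 96 h, and 42.3 ± 1.9% after 144 h. *g6113* went the other way, from 32.4 ± 0.0815% after 6 h to 25.3 ± 0.322% after 96 h and 26.5 ± 0.38% after 144 h. In *hlr1* the same shift was measured, from 32.9 ± 2.14 to 41.2 ± 0.73% for *g5629* and from 31.7 ± 0.726 to 26.2 ± 0.411% for *g6113*. Per library, the ratio of the count of *g5629* to that of *g6113* was 0.981 to 1.12 after 6 h and 1.58 to 1.73 after 96 h in WT, without overlap. The corresponding ranges in *hlr1* were 0.986 to 1.08 and 1.53 to 1.63.

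By late HL, *g9713* took its lowest share, 22.7 ± 1.42% in WT and 20.02 ± 0.471% in *hlr1* after 144 h, against 27.1 ± 1.87 and 28.4 ± 1.74% after 6 h. *g6882* took 6.6 ± 1.34% after 6 h and 8.54 ± 0.198% after 144 h in WT, and 6.98 ± 1.58 and 11.4 ± 2.26% in *hlr1*. From 6 h to 96 and 144 h the libraries of *g5629* and of *g6113* did not overlap in either strain, with higher shares of *g5629* and lower shares of *g6113*. The share of *g9713* in WT after 96 h (25.6 ± 1.61%) overlapped with that after 6 h, and after 144 h it did not. These shares are descriptions and were not tested.

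**Figure D4:**
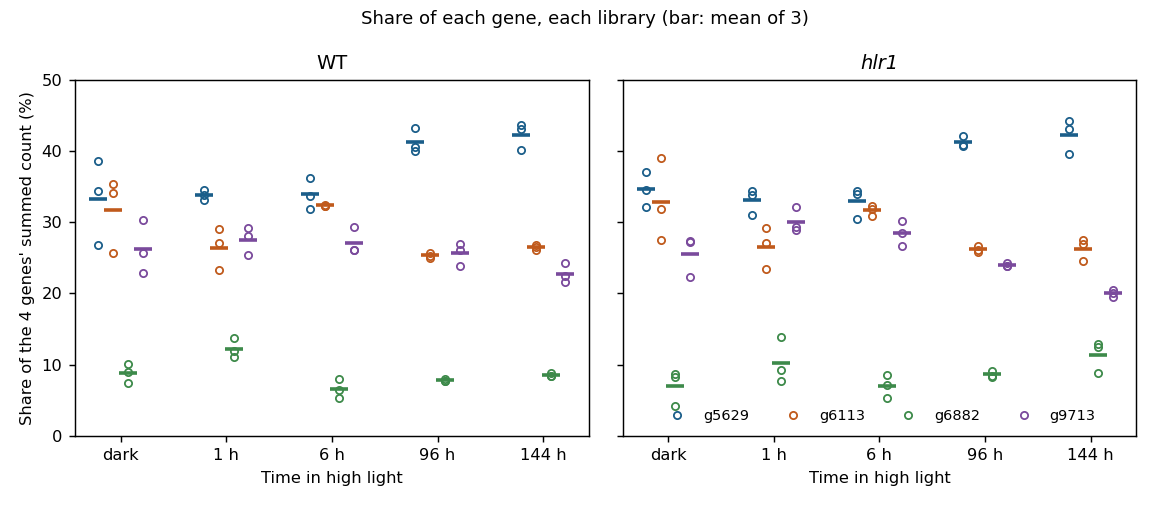
Share of each gene in the summed count of the 4 genes (y axis, percent, from 0) against the time in HL (x axis), for WT and *hlr1*. Points are libraries and bars means of 3; the share of *g5629* is 39.6 to 44.3% from 96 h on and 26.8 to 38.6% before, over both strains.

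Across the 10 group means on the log2 scale, *g6113* and *g9713* were the most alike pair of the 4, with Pearson's r = 0.89, and *g6882* and *g9713* the least, with 0.065. *g5629* had r = 0.67 with *g6113*, 0.39 with *g9713* and 0.38 with *g6882*. Over the 6 group means from 6 h on, without the scattered dark and 1 h groups, *g5629* had r = 0.90 with *g6882*, 0.65 with *g6113* and 0.43 with *g9713*, and *g6113* had 0.95 with *g9713*. These values describe 10 groups that share the same scaling, and they have no test. Among 5598 other genes with an informative description and enough counts, *g9713* was the most alike gene to *g6113*, and *g6113* to *g9713*. The next for *g6113* were *g6489* (a glyoxalase I-like protein, 0.89), *g9589* (a pentatricopeptide repeat protein, 0.82), *g7530* (an ion channel, 0.81) and *g2383* (VCP1, the violaxanthin-chlorophyll protein of this genus, 0.80). For *g9713* they were *g722* (0.86), *g8940* (0.81), *g6489* (0.80) and *g7592* (0.76).

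The genes most like *g5629* were largely of photosynthesis. They were *g5628* (a light-harvesting complex protein, r = 0.97), *g1251* (a light-harvesting protein, 0.97), *g2604* (a Rieske iron-sulfur protein, 0.95), *g4625* (a light-harvesting protein, 0.95) and *g2748* (an extrinsic protein of PSII, 0.95). For *g6882* the closest were *g2850* (a pentatricopeptide repeat protein, 0.85), *g4715* (an ascorbate peroxidase, an enzyme that removes hydrogen peroxide, 0.74), *g2682* (0.74), *g5620* (0.68) and *g9982* (0.67). With *HLR1* the r were 0.030 (*g5629*), 0.27 (*g6113*), 0.074 (*g6882*) and 0.28 (*g9713*), over group means that include those of the mutant.

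*g5629* and its closest match *g5628* lie side by side on scaffold 182, in opposite orientation with their starts facing each other and 394 bases between the gene models. In WT *g5628* was at 1580 ± 227.9 CPM after 1 h, 2695 ± 145.8 after 6 h, 2023 ± 107.5 after 96 h and 2877 ± 150.6 after 144 h. It rose from 1 to 6 h (log2 0.85 ± 0.12, edgeR adjusted p = 0.000681), fell to 96 h (−0.45 ± 0.072, 0.00012) and rose to 144 h (0.49 ± 0.073, 0.000896), as *g5629* did. The other members have no such near neighbour: *g6857* of the LHC family lies 51174 bases from *g6882*, *g9733* lies 51885 bases from *g9713*, and scaffold 214 holds no other gene described as LHC beside *g6113*. Of all 10363 genes, 6.31% have an LHC gene within 51885 bases on their scaffold.

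The other 17 genes described as LHC proteins, *HLR1* included, were counted over the same steps. They were found by words in the descriptions, which leaves out *g2383* (VCP1) and *g1546*, an LHCX gene that the study names. From 1 to 6 h in WT 15 of the 17 rose and 2 fell, with a median log2 fold change of 0.84 beside 0.070 for all genes, of which 27.3% rose and 27.4% fell. From 6 to 96 h in WT 14 fell and 1 rose (median −0.43 beside 0.0066), where 20.8% of all genes fell and 22.2% rose. From 96 to 144 h 16 rose and 0 fell (median 0.51 beside 0.0075), where 3.89% of all genes rose and 5.58% fell. In *hlr1* 12 rose and 3 fell from 1 to 6 h, 9 fell and 3 rose from 6 to 96 h, and 4 rose and 0 fell from 96 to 144 h, with medians of 0.77, −0.17 and 0.29 beside 0.33, 0.0087 and −0.0033 for all genes. Of all genes in *hlr1*, 12.2% rose and 15.2% fell in the first of these steps, 25.4% fell and 27.9% rose in the next, and 9.72% rose and 7.1% fell in the last. These were counted at an adjusted p under 0.05, and 6 of the rises and both falls from 1 to 6 h in WT were also called.

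*g6857* fell from 1 to 6 h in both strains (log2 −2.68 ± 0.15 in WT and −2.87 ± 0.14 in *hlr1*, edgeR adjusted p = 7.36e-06 and 5.47e-05), and *g9917* fell by more (−3.66 ± 0.13 and −3.90 ± 0.14, 1.24e-06 and 2.86e-05). The largest rises were those of *g1003* (2.14 ± 0.22 in WT), *g7398* (1.95 ± 0.11) and *g240* (1.39 ± 0.10), with edgeR adjusted p of 0.000124, 7.36e-06 and 2.12e-05. None of the 4 LHCR genes changed as much as these in that step.

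A search of the descriptions for subunits of PSI, the complex that this antenna serves, gave 0 genes, and 9 psa genes, which encode PSI subunits, are listed on the plastid genome in RefSeq (ASM5162214v2). Of 13 genes whose description names PSII or a psb gene, which include extrinsic subunits and assembly or maturation factors, 3 rose and 6 fell from 1 to 6 h in WT (median log2 −0.20), 4 rose and 3 fell from 6 to 96 h (−0.14) and 4 rose and 0 fell from 96 to 144 h (0.24). The medians of all genes were 0.070, 0.0066 and 0.0075. The 3 of 13 that rose from 1 to 6 h stand beside 27.3% of all genes, and the 6 that fell beside 27.4%. For 6 to 96 h the shares of all genes were 22.2% rising and 20.8% falling, and for 96 to 144 h 3.89% and 5.58%.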

How the data were processed

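mRNA-Seq was run on 30 libraries (Illumina HiSeq), 3 per strain and time. The methods describe 3 biologically independent sets per time point, and the letters a, b and c were taken as these. The authors mapped reads with TopHat2 2.0.12 and deposited read counts per gene, 1 table per time. Genome build, counting tool and use of strand were not given in the sources consulted. The deposited normalized values, fold changes and p-values of the authors' own comparison of the strains were not used. Positions and descriptions are those of the tables.

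The members and lists were chosen with earlier results of these data known. In R 4.3.3, genes were filtered with filterByExpr (minimum count 10) and scaled by TMM. They were tested with the quasi-likelihood test of edgeR 4.0.16, separately for each of 17 comparisons of 3 with 3 libraries, and in a fit of 4 groups for 5 interactions. Adjusted p are by Benjamini-Hochberg over all genes tested, and called genes also changed over 2-fold. The step from 1 to 6 h was added after the levels were seen. Levels are CPM with TMM factors over all libraries, and correlations used log2 CPM (prior count 2). The fits were tested on simulated data. Genes named are the 4 members, *HLR1*, up to 3 called LHC genes in each direction, and the 5 genes with the highest r to each member. *g5628* is among these and was followed further as the neighbour of *g5629*, a choice made after its values were seen. Genes given as examples beyond the members are matches by description only. Replicate libraries of a group differed by more than counting noise (chi-square per gene 3.41 to 210), so none was counted as a copy. Alternatives were DESeq2 1.42.0, library totals, other filters, limma 3.58.1 voom with library weights, 1 fit of all groups, the replicate letter as a block, leaving out single libraries, and leaving out the 3 libraries that stand apart together.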

Additional observations from a re-analysis of the deposited data

Results flagged for a closer look

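The light response of *HLR1* (*g4928*), the disrupted gene, differed between the strains by over 2-fold in 2 steps. From 1 to 6 h its log2 fold change in *hlr1* was below that in WT by −1.46 ± 0.18 (edgeR adjusted p = 0.0235), and from 6 to 96 h it was above that in WT by 1.32 ± 0.088 (6.67e-09). From 96 to 144 h it was below that in WT by −0.80 ± 0.097 (edgeR adjusted p = 0.00504). That step passed the adjusted threshold but was under 2-fold. The calls of *HLR1* depended on the processing. From 1 to 6 h, no gene was called with the replicate letter as a block or without WT 1 h replicate b. With library totals 1 gene was called for that step, with a value above 0. From 6 to 96 h, no gene was called with all groups in 1 fit.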

How the results depend on the processing

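Of 1312 values of the 4 genes under alternatives, over 88 gene and comparison pairs, 1118 kept their direction and their side of an adjusted p of 0.05, 27 no longer passed, 56 newly passed and 111 changed sign. None of the 111 belonged to one of the 19 pairs with an adjusted p under 0.05. The number of the 4 genes called moved only under library totals: to 1 in WT after 6 h and to 1 in WT after 144 h against the dark, and, from 1 to 6 h, to 3 in WT and to 1 in *hlr1*. The causes of these changes were not tested. The dark and 1 h libraries limit the precision most, as the scatter of their replicates shows. With the replicate letter as a block, *g9713* in *hlr1* after 6 h against the dark no longer passed (adjusted p = 0.0936), while *g5629* from 6 to 96 h (−0.15) and *g6113* from 96 to 144 h (0.40) in *hlr1* newly passed. Same-letter deviations correlated at −0.2 to 0.189, and no comparison had all 3 over 0.1. Whether libraries of the same letter were prepared together is not given, and the main fits do not pair them.

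The values that changed sign were the following log2 values, with the range over single left-out libraries given last. "Totals" stands for library totals, "voom" for limma voom with library weights, "pooled" for all groups in 1 fit, "minimum" for a mean count of 100 in the higher group and "trimmed" for the run without the 3 libraries that stand apart. For *hlr1* against WT in the dark, *g6882* had 0.37 (voom), 0.44 (trimmed) and −0.54 to 0.15, *g6113* −0.18 to 0.55, and *g9713* 0.11 (totals), 0.52 (voom), 0.11 (replicate block), 0.047 (pooled), 0.66 (trimmed) and −0.24 to 0.53. After 1 h *g6882* had 0.079 (trimmed) and −0.38 to 0.079, and after 6 h −0.25 to 0.10. After 96 h *g9713* had −0.022 to 0.089. After 144 h *g5629* had 5.33e-05 (voom) and −0.058 to 0.056, and *g6113* −0.15 to 0.11.

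For WT after 1 h against the dark, *g6882* had −0.16 to 0.46, and *g9713* 0.15 (trimmed) and −0.62 to 0.15. After 6 h *g6882* had 0.086 (DESeq2), 0.60 (totals), 0.29 (voom), 0.35 (trimmed) and −0.32 to 0.35. After 144 h *g6113* had 0.45 (totals), 0.19 (trimmed) and −0.45 to 0.19, *g6882* 0.16 (DESeq2), 0.69 (totals), 0.057 (minimum), 0.22 (voom), 0.079 (pooled), 0.40 (trimmed) and −0.12 to 0.40, and *g9713* 0.49 (totals), 0.055 (voom), 0.33 (trimmed) and −0.36 to 0.33. For *hlr1* after 1 h, *g6882* had −0.058 (voom) and −0.096 to 0.49, and *g9713* −0.24 to 0.040. After 6 h *g5629* had −0.0025 (pooled), −0.011 (trimmed) and −0.011 to 0.37, and *g6882* −0.020 (voom), −0.23 (trimmed) and −0.23 to 0.64. After 144 h *g6113* had 0.18 (totals), 0.019 (voom) and −0.28 to 0.047, and *g9713* 0.14 (totals) and −0.54 to 0.020.

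From 1 to 6 h *g6882* had 0.32 (totals), 0.038 (voom) and −0.32 to 0.036 in WT, and −0.059 (voom), −0.10 (pooled), −0.25 (trimmed) and −0.25 to 0.24 in *hlr1*. For the interaction of this step it had −0.031 (DESeq2), −0.0015 (minimum), −0.21 (voom), −0.16 (trimmed) and −0.16 to 0.31, and from 96 to 144 h −0.16 (voom) and −0.019 to 0.33. For the interaction of 1 h against the dark, *g5629* had −0.26 to 0.019, *g6113* −0.080 (totals), −0.091 (voom), −0.34 (trimmed) and −0.38 to 0.35, *g6882* −0.43 (voom), −0.36 (trimmed) and −0.27 to 0.43, and *g9713* −0.24 (voom), −0.41 (trimmed) and −0.27 to 0.50. For 6 h against the dark it was −0.73 to 0.011 for *g6113*, −0.62 (voom), −0.60 (trimmed) and −0.26 to 0.47 for *g6882*, and −0.62 to 0.16 for *g9713*. Of the levels and shares, 88 values moved by more than 1 SD, under library totals, relative to *g3056* or with *HLR1* in the sum. Leaving out 1 of 3 libraries cannot move a mean by that much, so it says nothing here. *g3056* is the reference gene that the study names actin, and the authors' annotation describes it as an actin-related protein. It was itself called higher in WT after 6 h than in the dark (log2 1.47 ± 0.42, edgeR adjusted p = 0.0425).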
